A study of Mus musculus with 6 samples.

Results

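The genes described here encode the main cannabinoid receptor of the brain and the enzymes that make and break down its lipid ligands. They were taken by symbol from the deposited gene table: Cnr1, Cnrip1, Dagla, Daglb, Mgll, Abhd6, Abhd12, Napepld and Faah. Each of the 9 symbols had 1 row among the 31838 genes, and all 9 passed the filter on low counts. The libraries were made from polyadenylated RNA of hippocampus, from wild type C57BL/6 mice aged 4 months. The BBP group (3 libraries) had received butyl benzyl phthalate, a plasticiser, at 50 mg/kg/day, and the control group (3 libraries) had received corn oil. The study, by its title, is about BBP and cognitive impairment, and the comparison asks how these genes differed in the hippocampus of treated mice. The labels give neither the route nor the duration of dosing. Separate animals are not stated for the libraries of a group, so p-values measure only the spread between these libraries.

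The endocannabinoid system works backwards across the synapse. Strong activity makes the postsynaptic neuron cleave membrane lipids into 2-arachidonoylglycerol (2-AG), which crosses to the presynaptic terminal, activates the CB1 receptor and lowers transmitter release until a hydrolase removes it. Anandamide, the other main ligand, is made and degraded by separate enzymes. In the hippocampus CB1 is densest on the terminals of cholecystokinin-containing (CCK) interneurons and is also found, at lower density, on glutamatergic terminals, where it takes part in short-term suppression of inhibition and excitation and in memory.

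The deposited estimated counts summed to 62477604 to 67270275 in the BBP libraries and to 62747522 to 68422361 in the corn oil libraries. Hippocampal neuron markers were present in all 6 libraries, but BBP library 1 stood apart. On the log2 CPM scale (counts scaled by library size, relative to the corn oil mean), its median was -1.03 over 6 dentate granule neuron markers, -0.49 over 6 CA1 markers and -0.93 over 6 CA2 and CA3 markers, while it was 1.89 over 10 striatum markers and 1.27 over 10 isocortex markers. In BBP libraries 2 and 3 and the 3 corn oil libraries the dentate median lay between -0.47 and 0.51 and the striatum median between -0.44 and 0.38. Corn oil library 3 had the lowest dentate and the highest striatum median of these 5. BBP library 2 held 11.5% of its counts in mitochondrial genes, against 7.17% to 7.79% in BBP libraries 3 and 1 and 7.11% to 8.57% in corn oil. Corn oil library 3 had the highest sum over 7 choroid plexus markers, 374 FPKM. It was 49.4 to 62.9 in BBP and 85.4 to 120 in the other corn oil libraries. Most of each sum was Ttr, with 51.5, 44.5 and 58.5 FPKM in BBP libraries 1 to 3, against 81.4, 115 and 366 in corn oil libraries 1 to 3. Kl had 0.794, 2.26 and 2.02 in BBP, against 1.77, 1.80 and 1.85 in corn oil. The median over the 7 markers was -0.59, -0.13 and -0.63 in BBP, against -0.60, -0.07 and 0.67 in corn oil. In bulk tissue, fewer cells of a type and less RNA per cell cannot be told apart.

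Levels between genes were compared as the deposited FPKM, in which the estimated count is scaled by gene length and library size. Abhd12 was by far the most abundant member, at 88.6 ± 2.75 FPKM (SD over the 6 libraries), higher than 98.2% of the 20428 genes tested. Mgll (27.5 ± 2.85), Cnr1 (25.5 ± 3.13), Dagla (24.1 ± 5.61), Abhd6 (19.9 ± 0.828), Faah (19.5 ± 2.16) and Cnrip1 (18.8 ± 1.75) followed, and each of these overlapped in range with its neighbour in the order. Napepld (6.49 ± 1.18) and Daglb (2.74 ± 0.261) lay below all of them, without overlap with the gene above in any library. Daglb still exceeded 51.7% of the tested genes in mean FPKM.

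**Figure D1:**
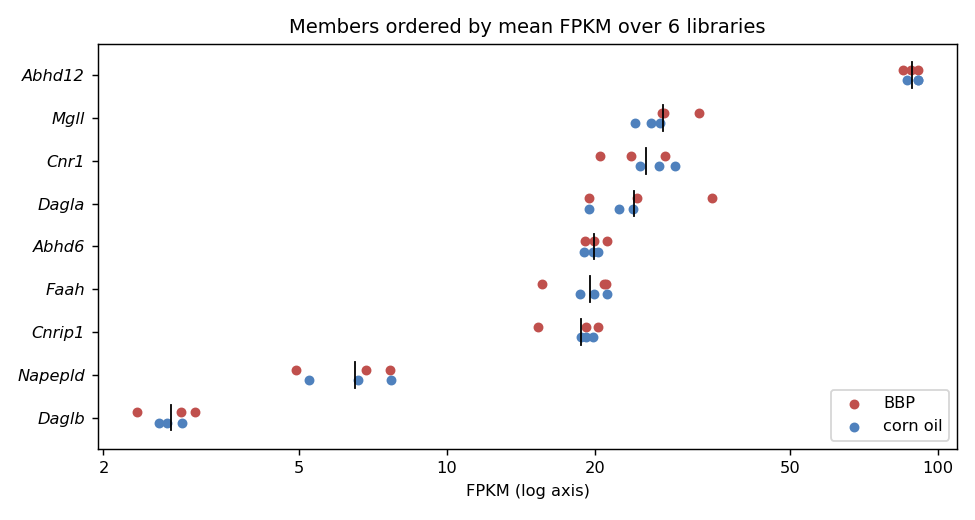
FPKM (log axis) of the 9 endocannabinoid genes in 3 BBP libraries (red) and 3 corn oil libraries (blue), ordered by the mean over the 6 libraries (black bar). Abhd12 stands apart at the top (84.6 to 91.1) and Daglb at the bottom (2.34 to 3.08), while the 6 genes from Mgll to Cnrip1 overlap along the order.

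The order in the middle depends on gene length. The deposited FPKM divides by the length of all annotated exons of a gene merged together: for the 9 members the length implied by counts and FPKM, rescaled by 1 factor common to all genes, was 0.9996 to 1.0003 of the merged exon length in GENCODE M21, and 98.1% of 8275 well-counted genes were within 1%. Merged exons are 9567 bases for Daglb, whose longest transcript has 4877, and 4003 bases for Cnrip1, whose longest transcript has 2153. Per base of longest transcript, a choice made after the data were seen, Cnrip1 moved to place 3, Cnr1 to 4 and Faah to 5. Dagla moved to 6 and Abhd6 to 7, and Abhd12, Mgll, Napepld and Daglb kept places 1, 2, 8 and 9. Daglb was then much closer to Napepld, at 6.00 against 7.23 CPM per kb of longest transcript, where the FPKM means were 2.74 and 6.49.

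Cnr1 encodes CB1, which couples to Gi and Go proteins (mm10 chromosome 4, 33924593 to 33948831, plus strand, 3 annotated transcripts). It had 20.5, 23.7 and 27.7 FPKM in BBP libraries 1 to 3, against 29.1, 27.0 and 24.7 FPKM in corn oil libraries 1 to 3. The BBP libraries spread widely and overlapped with corn oil: BBP library 3 was above corn oil libraries 2 and 3, and BBP library 1 was the lowest of all. The group means were 24.0 ± 3.62 and 27.0 ± 2.204 FPKM (SD, n = 3 each, BBP first), and the log2 fold change of BBP over corn oil was -0.15 ± 0.12 (SE; edgeR quasi-likelihood test, adjusted p = 0.953). Without BBP library 1 it was -0.03, without BBP library 3 it was -0.23, and without corn oil library 1 it was -0.09. The 6 markers of CCK-type interneurons, which carry much of the CB1 protein, had a median of -0.24 in BBP library 1 and between -0.05 and 0.04 in the other 5 libraries. They differed among themselves. Htr3a, with 3.16, 3.71 and 4.98 FPKM in BBP, against 4.83, 4.27 and 4.23 FPKM in corn oil, ran in the library order of Cnr1 within each group. Adarb2, with 1.05, 1.44 and 1.65 FPKM in BBP, against 1.70, 1.47 and 1.41 FPKM in corn oil, did so too. Slc17a8 was also lowest in BBP library 1, whereas Vip was highest there. Cck itself, which pyramidal neurons also express, had 188, 160 and 174 FPKM in BBP, against 188, 172 and 181 FPKM in corn oil, and Cxcl14 had 41.6, 40.9 and 42.1 FPKM in BBP, against 40.9, 40.1 and 41.3 FPKM in corn oil. The summed level of the 6 was 211 to 243 FPKM in BBP and 224 to 242 in corn oil, none was at 0 in any library, and their part in the Cnr1 value was not tested.

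Cnrip1 encodes CRIP1a, a small protein that binds the tail of CB1 and modulates its signalling (chromosome 11, 17051586 to 17055004, plus strand). It had 15.3, 20.3 and 19.2 FPKM in BBP libraries 1 to 3, against 19.8, 18.7 and 19.2 FPKM in corn oil libraries 1 to 3. Only BBP library 1 lay away from the other 5, which spanned 18.7 to 20.3. The log2 fold change was -0.05 ± 0.13 (SE, edgeR adjusted p = 0.977), 0.07 without BBP library 1 and -0.17 without BBP library 2. Its merged exons share 199 of 4003 bases with Plek on the opposite strand, and the deposited end of the gene lies short of the GENCODE M21 end at 17079371.

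Dagla and Daglb encode the diacylglycerol lipases that make 2-AG. Dagla, the form on which synaptic 2-AG in the adult mouse brain mainly depends (chromosome 19, 10245265 to 10304877, minus strand), had 19.5, 34.7 and 24.4 FPKM in BBP libraries 1 to 3, against 23.9, 22.4 and 19.5 FPKM in corn oil libraries 1 to 3. The BBP group held the highest value of the 6 libraries, in BBP library 2, and, narrowly below corn oil library 3, also the lowest. Dagla was the most variable member, with a coefficient of variation of 23.3% over the 6 libraries, above that of 87.1% of 13268 genes with a mean of at least 1 FPKM. Its log2 fold change was 0.29 ± 0.22 (SE, edgeR adjusted p = 0.953), with a 95% interval of 0.863-fold to 1.73-fold. The sign turned without BBP library 2, at -0.02, but the value was 0.12 with BBP library 3 as the only BBP library. Without BBP library 1 it was 0.48 (edgeR adjusted p = 0.700, within a range of 0.700 to 0.9999 over 16 alternative fits, with an unadjusted p under 0.05 in that fit alone). The mitochondrial share of BBP library 2, given above, was also the highest, and its part in the Dagla value was not tested. With mitochondrial genes left out of the fit, the log2 fold change was 0.28. That fit leaves out genes and not the library, and it moved Cnr1 (-0.146 to -0.154) and Mgll (0.206 to 0.198) as little. It therefore does not test that part.

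Daglb, the form best known from microglia and macrophages (chromosome 5, 143464584 to 143505942, plus strand), had 3.08, 2.34 and 2.88 FPKM in BBP libraries 1 to 3, against 2.60, 2.69 and 2.89 FPKM in corn oil libraries 1 to 3. The highest and the lowest library were both BBP, and they were those of Dagla exchanged: Daglb was lowest in BBP library 2 and highest in BBP library 1. The Dagla level was 6.33, 14.8 and 8.46 times the Daglb level (ratio of FPKM) in BBP, against 9.22, 8.32 and 6.75 times in corn oil. The size of this ratio depends on the gene length used. Dagla and Daglb were at 24.1 and 2.74 in mean FPKM, but at 27.3 and 6.00 CPM per kb of longest transcript. The log2 fold change of Daglb was 0.04 ± 0.11 (SE, edgeR adjusted p = 0.980), -0.03 without BBP library 1, 0.11 without BBP library 2, 0.0069 without corn oil library 1 and 0.08 without corn oil library 3. Of its 9567 merged exon bases, 2309 overlap exons of Rac1 on the opposite strand. Rac1 had 20813 to 23445 counts in BBP and 21659 to 22935 in corn oil, and Daglb had 1570 to 2080 and 1747 to 2105. The strand setting of the counting is not given in the sources used here, which leaves the Daglb level uncertain. Microglia markers, 9 genes, had medians between -0.05 and 0.14 in the 6 libraries, and C1qa, one of them, had 29.2 to 31.9 FPKM in BBP and 29.6 to 32.8 in corn oil. The list was not uniform. Tmem119 (8.37, 5.86 and 8.82 FPKM in BBP, against 8.23, 6.58 and 7.48 in corn oil) was lowest in BBP library 2, as Daglb was. Csf1r (13.3, 9.77 and 11.6, against 11.4, 11.1 and 11.6) was lowest there too, whereas P2ry12 (9.80, 11.7 and 10.4, against 7.53, 9.09 and 10.2) was highest there. The part of these markers in the Daglb value was not tested.

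Mgll encodes monoacylglycerol lipase, the presynaptic enzyme that removes most 2-AG in brain (chromosome 6, 88724412 to 88828360, plus strand, 10 annotated transcripts). It had 32.7, 27.7 and 27.5 FPKM in BBP libraries 1 to 3, against 27.1, 26.0 and 24.1 FPKM in corn oil libraries 1 to 3. It was the only member of the 9 whose 3 BBP values all lay above the 3 corn oil values, and BBP library 3 exceeded corn oil library 1 by little. Over all tested genes, 9.65% had FPKM values that did not overlap between groups in either direction, 4.4% with BBP above. On the log2 CPM scale with TMM normalization, Mgll overlapped as well (0.34, 0.21 and 0.07 in BBP, against 0.08, 0.02 and -0.10 in corn oil), so that 0 of 9 members were apart on that scale, against 10.4% of all genes. The mean was 29.3 ± 2.94 FPKM in BBP and 25.8 ± 1.54 in corn oil (SD, n = 3 each). The log2 fold change was 0.21 ± 0.10 (SE, 95% interval 0.988-fold to 1.35-fold) and did not pass edgeR's test (unadjusted p = 0.0657, adjusted p = 0.953). It was the smallest p of the 9 and ranked 976 of 20428 genes. Without BBP library 1 the value was 0.14, and with BBP library 3 as the only BBP library it was 0.06. The 10 oligodendrocyte markers had medians of 0.51, 0.58 and -0.06 in BBP libraries 1 to 3, against -0.16, 0.30 and -0.13 in corn oil libraries 1 to 3 (summed level 643 to 935 FPKM in BBP and 576 to 794 in corn oil, none of them at 0). Of these, Mbp had 320, 335 and 210 FPKM in BBP, against 188, 253 and 199 FPKM in corn oil. The part of these markers in the Mgll value was not tested. An antisense gene, Gm26588, shares 167 of the 5077 merged exon bases and had 131 to 176 counts in BBP and 86 to 147 in corn oil.

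Abhd6 and Abhd12 encode serine hydrolases that remove a smaller part of 2-AG. Abhd6, a postsynaptic enzyme (chromosome 14, 8002902 to 8056763, plus strand), had 19.9, 19.1 and 21.2 FPKM in BBP libraries 1 to 3, against 20.3, 19.8 and 19.0 FPKM in corn oil libraries 1 to 3. Abhd12, also a lysophosphatidylserine lipase that is abundant in microglia (chromosome 2, 150832493 to 150904741, minus strand), had 87.9, 84.6 and 91.1 FPKM in BBP libraries 1 to 3, against 90.8, 90.8 and 86.3 FPKM in corn oil libraries 1 to 3. The groups overlapped for each gene, and these were the steadiest members. Their coefficients of variation over the 6 libraries were 4.16% and 3.10%, and only 3.79% and 1.26% of the 13268 genes varied less. The log2 fold changes were 0.05 ± 0.08 for Abhd6 and -0.00 ± 0.08 for Abhd12 (SE, edgeR adjusted p = 0.965 and 0.999). Without 1 library they lay between 0.02 and 0.07 for Abhd6 and between -0.03 and 0.01 for Abhd12, where the sign turned without BBP library 1, corn oil library 1 or corn oil library 2. The 95% intervals ran from 0.914-fold to 1.17-fold for Abhd6 and from 0.886-fold to 1.13-fold for Abhd12, the narrowest among the members.

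Napepld encodes NAPE-PLD, a phospholipase that releases anandamide and related amides from membrane precursors, and Faah encodes fatty acid amide hydrolase, which breaks anandamide down. Napepld (chromosome 5, 21662901 to 21701396, minus strand), which in mouse hippocampus is known for its high level in dentate granule cells, had 4.93, 6.83 and 7.68 FPKM in BBP libraries 1 to 3, against 7.69, 6.60 and 5.25 FPKM in corn oil libraries 1 to 3. Faah (chromosome 4, 115967145 to 116017727, minus strand) had 15.6, 20.9 and 21.1 FPKM in BBP libraries 1 to 3, against 21.1, 19.9 and 18.6 FPKM in corn oil libraries 1 to 3. For each gene BBP library 1 was lowest and corn oil library 3 the next lowest, and the groups overlapped throughout. The same 2 libraries were the lowest in markers of all 3 hippocampal neuron lists: the medians in BBP library 1 and corn oil library 3 were -1.03 and -0.47 for dentate granule neurons, -0.49 and -0.19 for CA1 and -0.93 and -0.28 for CA2 and CA3. Of the dentate markers, C1ql2 had 9.89, 26.2 and 23.8 FPKM in BBP, against 22.8, 26.6 and 15.7 FPKM in corn oil, and Prox1 had 3.71, 10.8 and 9.31 FPKM in BBP, against 7.67, 8.69 and 5.32 FPKM in corn oil. The part of these markers in the Napepld and Faah values was not tested. The log2 fold changes were 0.02 ± 0.20 for Napepld and -0.03 ± 0.14 for Faah (SE, edgeR adjusted p = 0.997 and 0.989). Each turned with the library left out: Napepld was 0.19 without BBP library 1, -0.07 without BBP library 2, -0.09 without BBP library 3, 0.16 without corn oil library 1, 0.03 without corn oil library 2 and -0.12 without corn oil library 3. Faah was 0.11 without BBP library 1, -0.14 without BBP library 2, -0.07 without BBP library 3, 0.02 without corn oil library 1 and -0.07 without corn oil library 3. The Napepld level was 0.336 ± 0.0255 of the Faah level in BBP and 0.325 ± 0.0416 in corn oil (ratio of FPKM, SD, n = 3 each).

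**Figure D2:**
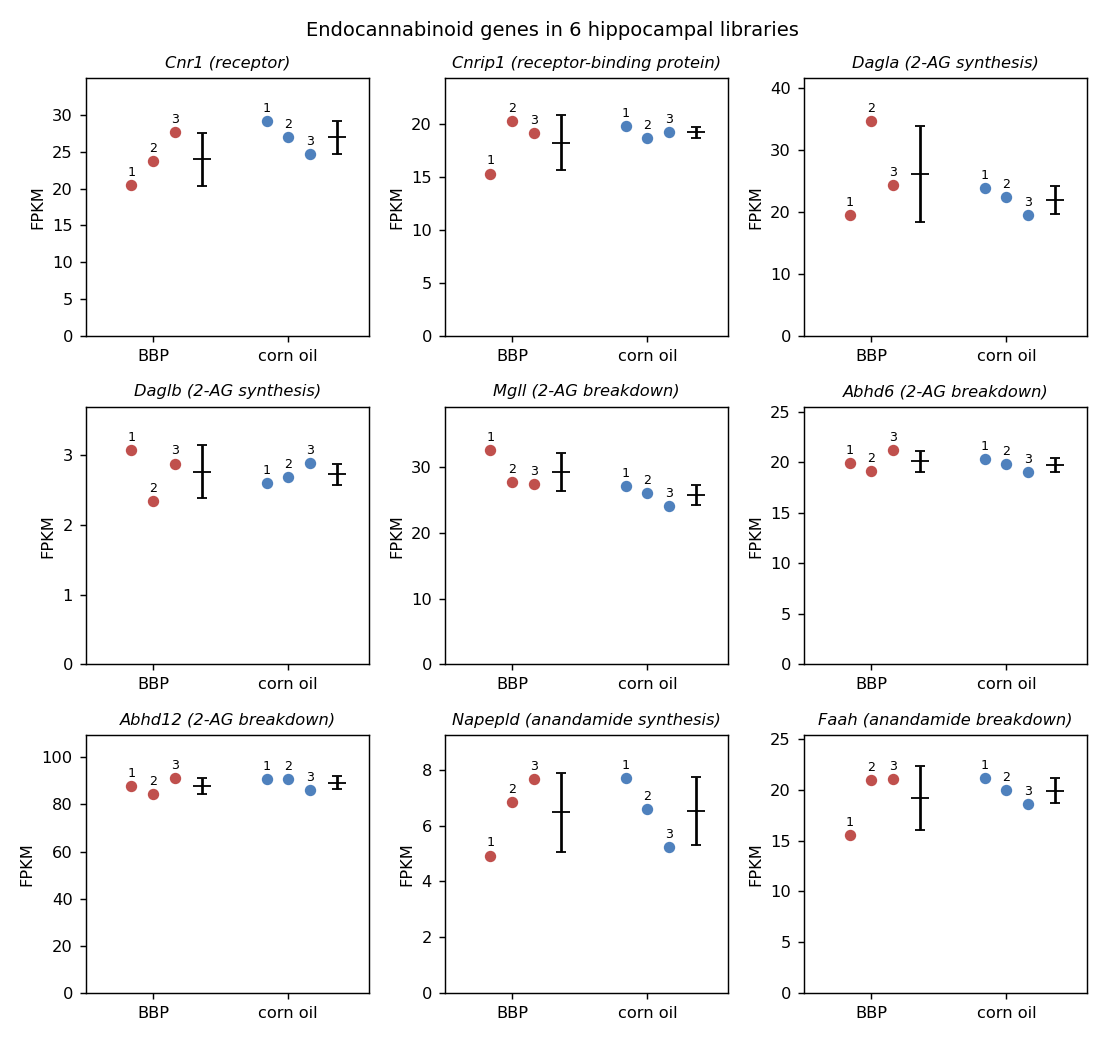
FPKM of each member in the 3 BBP libraries (red, left) and the 3 corn oil libraries (blue, right), numbered by library, with the group mean and SD in black. BBP library 1 is the lowest point for Cnr1, Cnrip1, Napepld, Faah and, narrowly, Dagla, and the highest for Mgll and Daglb. BBP library 2 is the highest for Dagla.

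Across the 9 members, edgeR's test called 0 at an adjusted p under 0.05, and it called 0% of the 20428 genes. At an unadjusted p under 0.05 there were 0 members, against 3.35% of all genes, and in DESeq2 0 members passed, against 0.0196% of all genes. The log2 fold change was positive for 5 members and negative for 4, with a median of 0.02 beside 0.01 over all tested genes. The standard errors of Abhd12, Abhd6, Mgll, Daglb, Cnr1, Cnrip1 and Faah were below the median of all genes, 0.18, and those of Napepld and Dagla above it. For all 9 members the 95% interval excluded a 2-fold difference in either direction. The interval for Cnr1 was 0.743-fold to 1.10-fold.

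**Figure D3:**
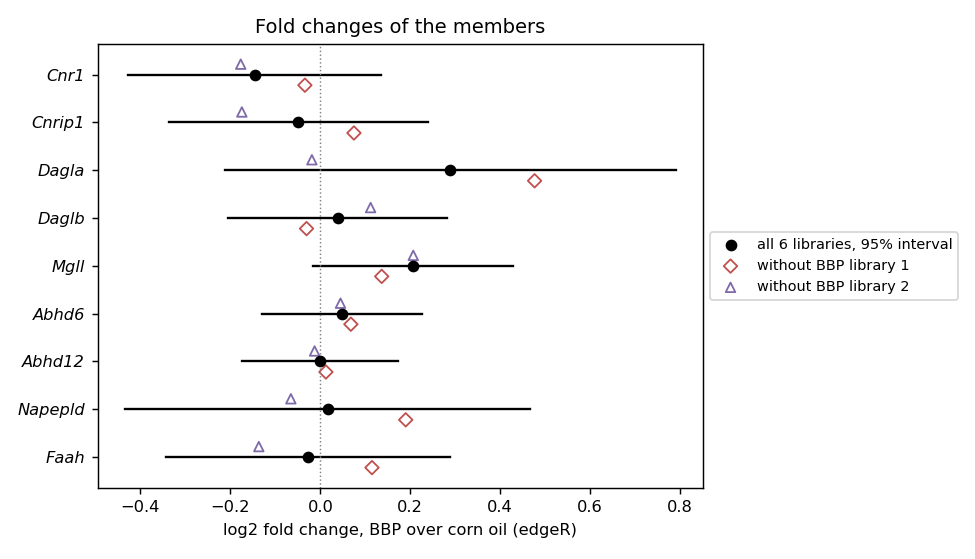
Log2 fold change of BBP over corn oil for each member (edgeR). Black points and lines give the value and its 95% interval over all 6 libraries, diamonds the value without BBP library 1 and triangles the value without BBP library 2. Every interval crosses 0, and Dagla is at -0.02 without BBP library 2 and at 0.48 without BBP library 1.

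The members differed from one another in which library carried their variation. Relative to the corn oil mean on the log2 CPM scale, BBP library 1 was at -0.40 for Cnr1, -0.39 for Napepld, -0.36 for Faah and -0.33 for Cnrip1, the lowest of the 6 libraries for each, while it was at 0.34 for Mgll, the highest. It was also the lowest for Dagla (-0.174, with corn oil library 3 at -0.1719) and the highest for Daglb (0.1693). For the first 4 of these genes the other 5 libraries spanned -0.13 to 0.12 (Cnr1), -0.30 to 0.26 (Napepld), -0.10 to 0.17 (Faah) and -0.04 to 0.17 (Cnrip1). The Mgll level was therefore 1.59 times the Cnr1 level in BBP library 1, 1.17 times in BBP library 2 and 0.990 times in BBP library 3, against 0.932, 0.963 and 0.975 times in corn oil libraries 1 to 3. BBP library 1 is the library with low hippocampal neuron markers and high striatum and isocortex markers. In that library the summed level of the 10 striatum markers was 181 FPKM, against 42.6 to 47.6 in BBP libraries 3 and 2 and 42.5 to 87.2 in corn oil, and that of the 10 isocortex markers was 123 FPKM, against 51.3 to 54.4 and 47.3 to 56.5. Penk, an opioid peptide gene of striatal neurons, had 72.1 FPKM there and 12.4 to 42.5 in the other 5 libraries, and Ppp1r1b, which encodes the striatal signalling protein DARPP-32, had 51.4 FPKM there and 15.7 to 26.0 in the other 5. Of the isocortex markers, Lamp5 had 64.5 FPKM there and 14.6 to 20.7 in the other 5, whereas Fezf2 had 11.1 FPKM there, the lowest of the 6, and 11.5 to 17.2 in the other 5. No striatum or isocortex marker was at 0 in any library. How much of the members' values in BBP library 1 goes with this was not tested.

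Dagla set against Mgll compares the RNA of an enzyme that makes 2-AG with the RNA of one that removes it. These libraries hold no measure of 2-AG or of protein. The ratio of Dagla to Mgll FPKM was 0.596, 1.25 and 0.888 in BBP libraries 1 to 3, against 0.882, 0.860 and 0.809 in corn oil libraries 1 to 3. The means were close, 0.912 ± 0.328 and 0.850 ± 0.0377 (SD, n = 3 each, BBP first). BBP library 1 lay below all corn oil libraries, and BBP library 2 and, narrowly, BBP library 3 lay above them. No test was made on this ratio, which was chosen with the values known.

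**Figure D4:**
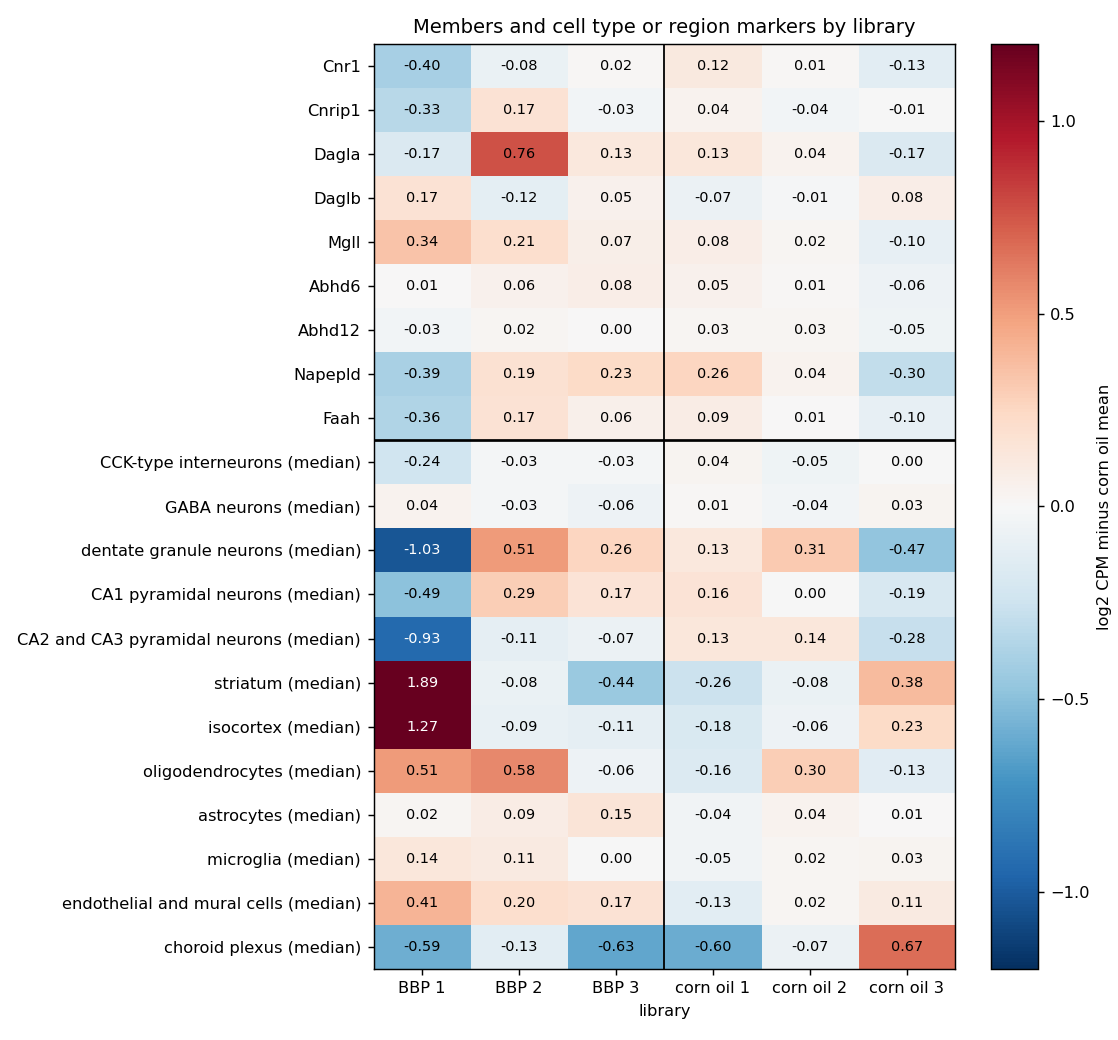
Log2 CPM minus the corn oil mean for the 9 members (top) and the median of 12 marker lists (below the line) in each library, BBP at the left; colours end at 1.2 in either direction. The first column shows the low dentate, CA1 and CA2 and CA3 markers, the high striatum (1.89) and isocortex (1.27) markers, and the low Cnr1, Cnrip1, Napepld and Faah of BBP library 1.

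Promoter windows, 250 bases before to 50 after a RefSeq start site (GRCm38.p6), were found for 7 of the 9 genes; those of Dagla and Abhd12 are not used here. Where a gene has several windows, that nearest the deposited start of the gene was taken. The 3 printed are those of Cnr1 (chr4:33924394-33924693, plus strand) and Faah (chr4:116017875-116018174, minus strand), both lowest in BBP library 1, and of Mgll (chr6:88724162-88724461, plus strand), highest in that library. They are given 5′ to 3′ in lower case, with capitals for the GC box GGGCGG, the E-box CACGTG and their reverse complements.
Cnr1: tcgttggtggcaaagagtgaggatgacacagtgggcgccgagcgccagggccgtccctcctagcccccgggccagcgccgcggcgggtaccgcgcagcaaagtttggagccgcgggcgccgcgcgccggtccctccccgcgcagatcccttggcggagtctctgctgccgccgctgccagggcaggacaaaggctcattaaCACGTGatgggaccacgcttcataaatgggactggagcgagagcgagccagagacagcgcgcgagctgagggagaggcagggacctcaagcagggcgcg
Faah: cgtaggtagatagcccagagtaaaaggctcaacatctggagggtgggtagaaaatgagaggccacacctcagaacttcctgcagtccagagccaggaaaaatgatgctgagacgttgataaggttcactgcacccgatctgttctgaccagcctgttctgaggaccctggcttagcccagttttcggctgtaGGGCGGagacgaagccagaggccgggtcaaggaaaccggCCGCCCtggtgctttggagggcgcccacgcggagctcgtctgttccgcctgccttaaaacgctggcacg
Mgll: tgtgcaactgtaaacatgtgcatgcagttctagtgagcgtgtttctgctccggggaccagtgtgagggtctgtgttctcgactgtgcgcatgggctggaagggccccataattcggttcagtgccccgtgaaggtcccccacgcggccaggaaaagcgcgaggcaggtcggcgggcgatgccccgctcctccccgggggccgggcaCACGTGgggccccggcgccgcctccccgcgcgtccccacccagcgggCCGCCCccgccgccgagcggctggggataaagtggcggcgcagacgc
Cnr1 and Mgll are each rich in CpG, with 33 and 32 CpG in 300 bases, against 16 in Faah and a median of 7 over 32851 windows of the same length. A search of both strands found GGGCGG 2 times in Faah, 1 time in each of Mgll, Cnrip1 and Abhd6 and 0 times in Cnr1, Daglb and Napepld, where 35.7% of all windows hold it. CACGTG stood 1 time in each of Cnr1 and Mgll and in 7.15% of all windows. TATAAA (13.6% of all windows) and the cAMP response element TGACGTCA (1.79%) were found in none of the 7 windows. These matches describe letters only, and the series holds no measurement of binding or methylation.

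Of the wider pathway, 48 genes were listed by role and all were found in the table, 3 of them under newer symbols. The filter on low counts left 43, of which edgeR's test over all genes called 0 at the threshold of 0.05, as did DESeq2. The log2 fold change was positive for 27 and negative for 16 of them (median 0.06), where it was positive for 10713 and negative for 9715 of all tested genes (median 0.01). An unadjusted p under 0.05 was found for 1 of the 43, against 3.35% of all genes. Genes listed for the Gq-coupled drive of 2-AG release, which include those of mGluR5, M1 and phospholipase C, were positive for 9 of 11, with a median of 0.06. The mGluR5 gene, Grm5, was 1 of the 2 negative ones (-0.0035). The positive ones include the kinase gene Camk2a (0.15) and Homer1 (0.48). Homer1 had 19.3, 6.80 and 7.54 FPKM in BBP libraries 1 to 3, against 8.20, 8.22 and 7.87 in corn oil libraries 1 to 3. The list does not separate genes that raise 2-AG release from genes that restrain it. The lipid carriers Fabp3, Fabp5, Fabp7 and Scp2 were negative for 4 of 4, with a median of -0.13, and each was lowest in BBP library 2. The 4 other receptors tested (Cnr2, Gpr55, Ppara and Pparg) were positive for 4 of 4, with a median of 0.50, at levels of at most 1.28 FPKM, and the Gi and Go alpha subunits were positive for 3 of 5, with a median of 0.08. Receptor partners and desensitising proteins were positive for 3 and negative for 3, with a median of -0.00. The other anandamide-making enzymes were positive for 5 of 8 and the other degrading enzymes for 3 of 5, with medians of 0.09 and 0.08.

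The gene with the smallest p was Pparg, a nuclear receptor that binds fatty acids and their derivatives. It had 1.28, 0.444 and 0.581 FPKM in BBP libraries 1 to 3, against 0.333, 0.488 and 0.393 FPKM in corn oil libraries 1 to 3. The log2 fold change was 0.93 ± 0.39 (SE, edgeR unadjusted p = 0.0435, adjusted p = 0.953), and 0.38 without BBP library 1, the highest library. Plcb4, a phospholipase C that yields the precursor of 2-AG, had 5.94, 2.59 and 2.08 FPKM in BBP, against 2.06, 2.17 and 2.50 FPKM in corn oil, with a log2 fold change of 0.67 ± 0.34 (SE, edgeR adjusted p = 0.953) and 0.10 without BBP library 1. Among the Gi and Go alpha subunits through which CB1 signals, Gnai2 had 35.8, 40.7 and 36.2 FPKM in BBP, against 33.1, 31.8 and 34.2 FPKM in corn oil. Gnao1, the abundant Go subunit of brain, had 54.3, 74.5 and 55.7 FPKM in BBP, against 53.9, 53.2 and 53.6 FPKM in corn oil. These were the 2 of 43 genes whose groups did not overlap, on the FPKM and the log2 CPM scale, each with BBP higher, where 9.65% of all genes do not overlap in FPKM. Neither passed the test: the log2 fold changes were 0.21 ± 0.10 and 0.23 ± 0.15 (SE, edgeR adjusted p = 0.953 for each), and without BBP library 2 they were 0.11 and 0.02. Abhd2, which hydrolyses 2-AG in human sperm, and Grk2, a kinase of activated receptors, had 0.24 ± 0.13 and 0.15 ± 0.09 (SE, edgeR adjusted p = 0.953 for each). The Abhd2 value was 0.09 without BBP library 2, and the Grk2 value was 0.08 without BBP library 1.

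The other receptors named for cannabinoids were near the limit of detection. Cnr2, which encodes the CB2 receptor of immune cells, had 0, 11 and 33 deposited counts in BBP libraries 1 to 3, against 6, 15 and 11 in corn oil libraries 1 to 3, or at most 0.111 FPKM in any library. Gpr18, Gpr119 and Trpv1 did not pass the filter on low counts, nor did Plaat5 and Alox15. Trpv1, an ion channel that anandamide can open, had 4, 0 and 4 counts in BBP, against 5, 15 and 22 in corn oil, a level too low for a comparison.

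**Figure D5:**
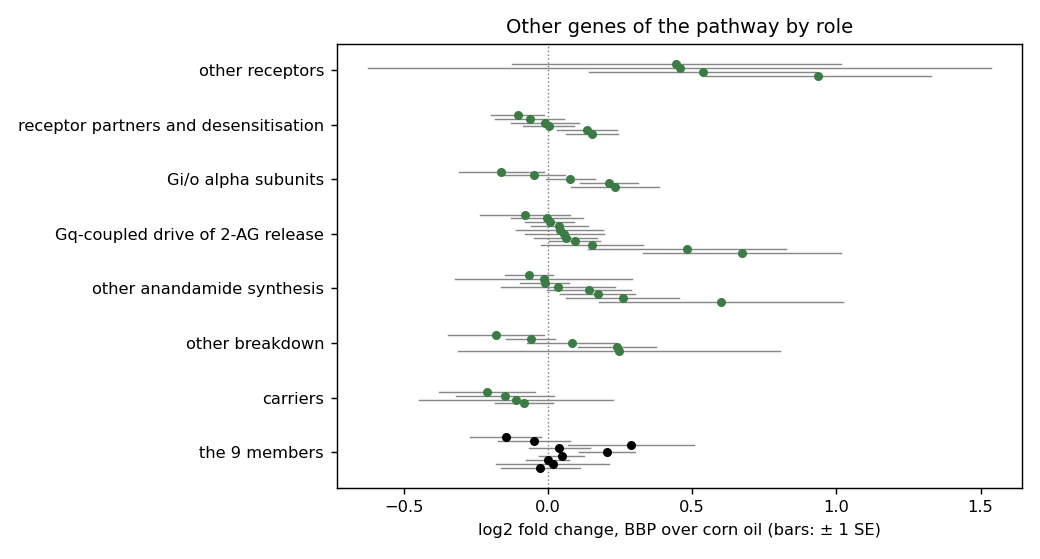
Log2 fold change of BBP over corn oil (points, with 1 SE to each side) for the 43 tested pathway genes grouped by role and, at the bottom, the 9 members. None passed the test over all genes, and the points farthest right, Pparg (0.93) and Plcb4 (0.67), are genes highest in BBP library 1.

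Among 6793 named genes with a mean of at least 5 FPKM, those whose log2(FPKM + 1) ran most alike with Cnr1 over the 6 libraries were Arpc5, an actin-nucleating complex subunit (Pearson's r = 0.996), Ankmy2 (0.994) and Akain1 (0.991). Arpc5 had 45.6, 57.4 and 71.6 FPKM in BBP, against 76.7, 70.0 and 58.4 FPKM in corn oil, the same order of libraries within each group as Cnr1. Those most like Mgll were Ecd (0.995), the circadian output factor gene Hlf (0.990) and the synaptic protein gene Syndig1 (0.990). Syndig1 had 12.8, 10.8 and 10.6 FPKM in BBP, against 10.2, 9.96 and 8.73 FPKM in corn oil. Each r rests on only 6 libraries. An r above 0.9, a looser bound than these values, was reached by 238 of 6793 genes with Cnr1 and 64 with Mgll. All genes of a library share its depth and its tissue makeup, so these values describe the 6 libraries only.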

How the data were processed

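Oligo(dT)-purified RNA of 6 mouse hippocampus samples went into paired-end libraries that mark strand (dUTP) and carry molecular identifiers, per the labels' protocols. Tools listed in the submitters' processing notes, without their roles, are StringTie 2.1.6, HISAT2 2.2.1, cutadapt 1.9, edgeR, DESeq2 and UMI-tools, with the build mm10. Per the file headers, the authors deposited estimated counts and FPKM per gene. The deposited estimated counts are whole numbers, and in every library more genes stood at 4 than at 3 or 5, so a count is not 1 fragment; they were rounded before use, which changed none. The deposited FPKM values are the same counts scaled by library and by merged exon length, so they are no second measurement. Counts over genes ranged from 62477604 to 68422361 per library.

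BBP was compared with corn oil in edgeR 4.0.16 (R 4.3.3), after TMM scaling and filterByExpr, by the quasi-likelihood test with treatment as sole term, and p-values were adjusted by Benjamini-Hochberg over 20428 genes (threshold 0.05). Each SE was obtained by dividing the absolute log2 fold change by the root of the F statistic, and 95% intervals use the test's degrees of freedom. The fits were tested on simulated counts. Log2 CPM values use a prior count of 2. Alternatives used limma 3.58.1 on log2(FPKM + 1) or log2(FPKM + 0.1), DESeq2 1.42.0 and other edgeR settings. Gene structures are from GENCODE M21 and promoter windows from RefSeq (GRCm38.p6). No sample was left out, and figures were drawn with matplotlib 3.10.9.

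All 9 members are named. Of the pathway list, genes with an unadjusted p under 0.05 are named or, where fewer than 6, the 6 with the smallest p. Other pathway genes were named after their values were seen: the carriers, Cnr2, Gpr55, Ppara, Trpv1, Grm5, Homer1, Camk2a and those the filter removed. So were 4 further CCK-type interneuron markers and the microglia markers Tmem119, Csf1r and P2ry12. Of each marker list set beside a member, the 2 genes with the highest mean FPKM are named, except for the CA1, CA2 and CA3 and choroid plexus lists, given as medians or sums, and 1 gene each of the oligodendrocyte and microglia lists, not reported here. Also named are the 3 genes most like Cnr1 and Mgll by Pearson's r. The members, lists and tests were chosen with earlier results of these data known. The marker lists for GABA neurons (median log2 fold change -0.04), astrocytes (0.11), endothelial and mural cells (0.25) and choroid plexus (-0.58) were described in the same way, with 0 genes past the threshold in any list.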

Additional observations from a re-analysis of the deposited data

How the results depend on the processing

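The count of 0 members and 0 pathway genes past the threshold was the same under the 16 alternatives run. Over all genes, DESeq2 called 4, the fit with BBP library 3 as the only BBP library 10, and the fits without 1 library each 0 to 3 (3 without BBP library 1, 1 without corn oil library 2). Of 144 member values under alternatives, 127 kept their direction, 17 changed it, 2 had an unadjusted p under 0.05 (Dagla without BBP library 1, Mgll without BBP library 3) and 0 an adjusted one. For the 9 members, values that changed direction lay between -0.117 (Napepld without corn oil library 3) and 0.1148 (Faah without BBP library 1). They included Dagla, at 0.289 over all 6 libraries and -0.0188 without BBP library 2. The cause of these changes was not tested, and a fit without a library shows only how far a value rests on that library. Napepld was -0.01 in the 3 limma fits (-0.0115 with a pseudocount of 1, with or without a filter, and -0.0141 with 0.1), and Abhd12 was 0.0008 with counts divided by 4. Leaving out 1 library gave a range of -0.2338 to -0.0343 for Cnr1, 0.1364 to 0.2718 for Mgll, -0.1745 to 0.0747 for Cnrip1, -0.0188 to 0.4764 for Dagla, -0.0307 to 0.1118 for Daglb, -0.0258 to 0.013 for Abhd12, -0.117 to 0.1898 for Napepld and -0.1368 to 0.1148 for Faah. With BBP library 3 as the only BBP library, Cnr1 was 0.0084 and Faah 0.0486. That library is then assumed to vary like the corn oil group. The labels state no pairing of the samples. Same-numbered libraries deviated from their group means with correlations of -0.08, 0.08 and -0.10, which with 3 libraries per group cannot exclude a pairing. A fit with the replicate number as a block called 0 genes and 0 members, as without it, with 494 in place of 685 genes at an unadjusted p under 0.05 and Cnr1, Dagla and Mgll at -0.15, 0.24 and 0.20. With 3 libraries per group the 95% intervals stay wide for some genes, up to 1.73-fold for Dagla.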
